A study of Mus musculus with 28 samples.

Results

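Selenoprotein and antioxidant enzyme genes were followed in sorted thyroid and salivary gland cells of the mouse. The members are 10 genes taken by name: Gpx1, Gpx3, Gpx4, Selenop, Selenow, Txnrd1, Sod1, Sod2, Sod3 and Prdx1. They are 10 of 47643 gene rows, of which 17068 held reads, and each of the 10 matched 1 row by gene identifier. All libraries came from H2B-GFP mice, which carry a histone fused to green fluorescent protein that dividing cells dilute. Freshly sorted cells gave thyroid GFP+ and GFP− fractions at 3, 6 and 9 months of age, with 4, 4 and 3 libraries per fraction. Salivary gland GFP+ and GFP− fractions at 9 months had 3 libraries each, and together these are 28 libraries. The promoter of the transgene and any labelling and chase schedule are not given in the sources used here. The labels do not say whether replicates are separate animals or pools, and the p-values therefore describe sample-to-sample spread alone, which may be technical.

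Selenoproteins contain selenocysteine, an amino acid that ribosomes insert at an in-frame UGA, otherwise a stop codon, when the messenger RNA carries a SECIS hairpin in its 3′ untranslated region. The thyroid is among the organs richest in selenium. Its follicular cells release hydrogen peroxide at their apical surface, where it is used to iodinate thyroglobulin. Glutathione peroxidases and peroxiredoxins remove peroxides, superoxide dismutases turn superoxide into hydrogen peroxide, and thioredoxin reductase keeps thioredoxin, the electron donor of peroxiredoxins, in its reduced form.

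Of the 10 genes, 6 encode selenoproteins, and their selenocysteine codons are shown because they set these members apart from Sod1, Sod2, Sod3 and Prdx1, which carry none. The stretches are coding sequence of GENCODE vM21 transcripts, read 5′ to 3′ with GRCm38 positions. Per gene the transcript with most selenocysteine codons was taken, and among equals the one with the longest coding sequence. Codon numbers below refer to that transcript alone and can differ in other forms of the protein. Capitals mark the in-frame TGA.
Gpx1: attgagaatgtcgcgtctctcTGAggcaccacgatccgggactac
Gpx3: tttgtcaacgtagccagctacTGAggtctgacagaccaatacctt
Gpx4: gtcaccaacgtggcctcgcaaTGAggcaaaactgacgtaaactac
Selenow: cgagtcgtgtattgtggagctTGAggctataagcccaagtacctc
Txnrd1: gacatcctccagtctggctgcTGAggt
Selenop, first codon: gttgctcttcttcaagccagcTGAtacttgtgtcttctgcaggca
Selenop, last 5 codons: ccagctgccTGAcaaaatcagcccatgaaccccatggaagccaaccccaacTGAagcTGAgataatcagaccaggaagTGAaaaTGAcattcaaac

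The codon lies at chr9:108339451-108339453 in Gpx1 (plus strand, codon 47 of 201) and at chr11:54907256-54907258 in Gpx3 (plus strand, codon 73 of 226). It lies at chr10:80054737-80054739 in Gpx4 (plus strand, codon 129 of 253) and at chr7:15920464-15920466 in Selenow (minus strand, codon 13 of 88). In Txnrd1 it is at chr10:82896037-82896039 (plus strand) and is codon 612 of 613, next to the end of the protein. The next codon is ggc or ggt, which encode glycine, in all 5 of these genes. Selenop has 10 selenocysteine codons on the plus strand of chromosome 15. The first is at chr15:3274848-3274850 (codon 59 of 380), and the last 5 lie within the 96 bases of chr15:3279612-3279707.

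The libraries were shallow and uneven. Between 507 and 209091 reads per library were assigned to genes, 2263832 in all, and 6 libraries had under 10000. Ribosomal RNA rows took 25.1 to 63.8% of the reads in genes. Of the members, 0 to 10 had reads in a library, and their reads summed to 0 to 389 per library. Levels are given as CPM, the counts scaled to a common number of reads in genes, and a gene with 0 reads could have been present at up to 14.4 to 5917 CPM depending on the library, taken as 3 reads. Reads come from transcript ends, and where genes are ordered below the order is by read number alone. These are mixed cells, so fewer cells of a type and less RNA per cell cannot be told apart. In the tests, 8 of the 10 members passed the filter on low counts in the thyroid fit, all but Gpx4 and Selenow. At 9 months across glands 6 passed, all but Gpx4, Selenow, Txnrd1 and Sod2.

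Among the members, the secreted enzymes Gpx3 and Sod3 were higher in thyroid GFP+ than in GFP− cells over the mean of the 3 ages. These were 2 of 8 members tested, and 0 members were lower, beside 11.4% of all 1900 genes called higher and 8.79% called lower (edgeR quasi-likelihood test, Benjamini-Hochberg adjustment). Sod3 passed the filter on low counts through GFP+ libraries, so its calls between the thyroid fractions are given as descriptions. The median log2 fold change of the 8 members was −0.02, beside −0.08 over all genes tested. With DESeq2's size factors in the same fit the median of all genes stood at 0.22, and 70.7% of all calls were then higher in GFP+, instead of 56.4% (216 higher and 167 lower). DESeq2 itself gave 200 higher and 67 lower.

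**Figure D1:**
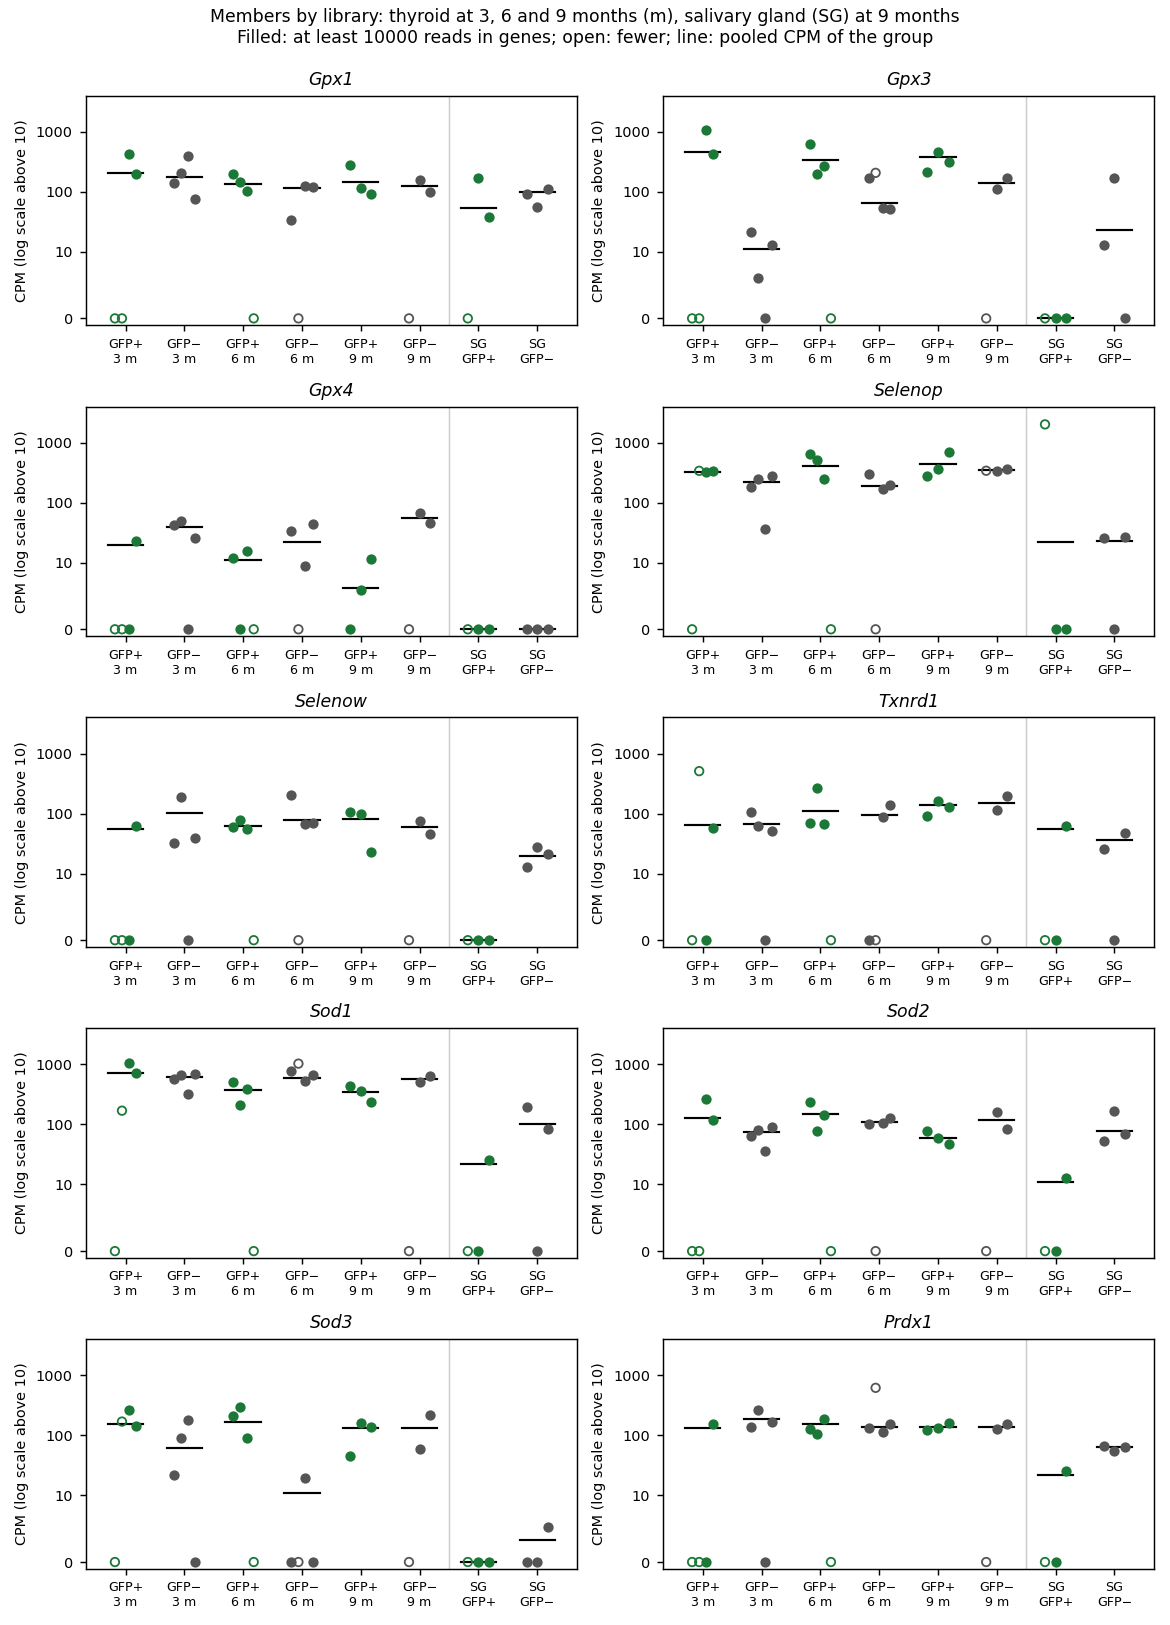
CPM of each member in every library, on an axis that is logarithmic above 10 CPM, with 1 column per group, filled points for libraries of at least 10000 reads in genes, open points for shallower ones, and a line at the pooled CPM of the group. In Gpx3 the GFP+ thyroid lines lie at 463, 341 and 373 CPM at 3, 6 and 9 months and the GFP− lines at 11.0, 64.0 and 138 CPM.

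Gpx3 encodes the glutathione peroxidase of plasma and extracellular fluid. At 3 months it stood at 0, 0, 1073 and 417 CPM in GFP+ libraries, against 21.4, 6.12, 0 and 12.8 CPM in GFP− libraries. Both GFP+ libraries at 0 were shallow, with 1562 and 5896 reads in genes, and the other 2 lay above every GFP− library. At 6 months the values were 635, 197, 271 and 0 CPM in GFP+ libraries, against 168, 206, 52.6 and 52.0 CPM in GFP− libraries. The GFP+ library at 0 held 507 reads, and the groups overlapped. At 9 months all GFP+ libraries, between 215 and 464 CPM on 14, 79 and 27 reads, lay above the 2 deep GFP− libraries, at 113 and 169 CPM. The third GFP− library was at 0 on 5884 reads, which allows up to 510 CPM.

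Over all ages Gpx3 averaged 326 ± 321 CPM in GFP+ cells, beside 72.8 ± 77.4 CPM in GFP− cells (SD, n = 11 each). Its summed reads were 335 in GFP+ and 64 in GFP−, a pooled ratio of 5.89 (95% interval 4.50 to 7.83, counting error only). The fitted log2 fold change was 2.62 (SE 0.432, 95% interval 1.77 to 3.46), with an adjusted p of 8.64e-08 in edgeR's quasi-likelihood test. Gpx3 was called at this contrast in 31 of 31 alternative fits, with log2 fold changes between 2.38 and 2.94.

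By age, the Gpx3 difference passed the test at 3 months and not at 6 or 9. At 3 months it was 4.75 (SE 0.845, adjusted p 4.61e-06), at 6 months 1.84 (SE 0.673, adjusted p 0.0758) and at 9 months 1.27 (SE 0.686, adjusted p 0.609), as log2 fold changes in edgeR. Pooled reads gave a ratio of 42.0 at 3 months (15.9 to 157), of 5.33 at 6 months (3.39 to 8.73) and of 2.71 at 9 months (1.86 to 4.03), on 4, 23 and 37 GFP− reads. At 3 months Gpx3 was 1 of 8 members called higher and 0 were lower, beside 5.0% and 4.74% of all genes, with a median of −0.06 over the members and −0.26 over all genes. Size factors of DESeq2 moved that split of all genes to 201 higher and 50 lower, and DESeq2 gave 144 and 16. Without GFP+ replicate 3 at 3 months the log2 fold change was 3.98, and with size factors from positive counts it missed the threshold at 4.24 (adjusted p 0.0614, edgeR). At 6 months Gpx3 was called in 5 of 17 alternative fits, with adjusted p from 0.00671 to 0.689. The 5 were those with DESeq2's size factors in edgeR (0.0230), without libraries under 10000 reads (0.00671), without GFP− replicate 1 (0.0439) or 2 (0.0488), and without GFP+ replicate 4 (0.0348).

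Sod3 encodes the secreted superoxide dismutase of the extracellular matrix. At 3 months its values were 0, 169.6, 268 and 143 CPM in GFP+ libraries, against 21.4, 91.7, 179 and 0 CPM in GFP− libraries. At 6 months they were 212, 301.4, 92.1 and 0 CPM in GFP+ libraries, against 0, 0, 19.1 and 0 CPM in GFP− libraries. All 3 deep GFP+ libraries at 6 months lay above the GFP− libraries, and the GFP+ library at 0 held 507 reads. At 9 months the fractions overlapped, with 46.1, 159 and 139.5 CPM in GFP+ libraries, against 0, 60.3 and 215 CPM in GFP− libraries.

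Sod3 averaged 139 ± 99.6 CPM in GFP+ cells over all ages, beside 53.3 ± 77.4 CPM in GFP− cells (SD, n = 11 each). The summed reads were 132 in GFP+ and 62 in GFP−, a pooled ratio of 2.40 (1.76 to 3.30). The fitted log2 fold change was 1.47 (SE 0.444, 95% interval 0.60 to 2.34) with an adjusted p of 0.00674 in edgeR. Too few GFP− libraries reached the filter on low counts, so Sod3 passed it through GFP+ libraries. The filter thus favoured the direction of this result, which is given as a description. The call was lost with DESeq2 (1.84, adjusted p 0.0603), with size factors from positive counts in edgeR (1.46, adjusted p 0.161) or DESeq2 (1.4995, adjusted p 0.237), and with no filter on low counts (1.48, adjusted p 0.119). Without GFP− replicate 3 at 6 months, the one GFP− library of that age with Sod3 reads, the fitted value was 2.53, against 0 reads in that group and so no bound.

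The Sod3 difference was called at 6 months (3.63, SE 0.854, adjusted p 0.00131, edgeR), and was 0.97 at 3 months (adjusted p 0.487) and −0.19 at 9 months (adjusted p 0.996). The filter favoured the direction of the call at 6 months as well, and it is given as a description. At 6 months the summed reads were 59 in GFP+ and 4 in GFP−, a ratio of 14.8 (5.49 to 56.2). Sod3 was 1 of 8 members called higher at 6 months and 0 were lower, beside 5.26% and 1.84% of all genes, and the median was 0.16 over the members and −0.08 over all genes. DESeq2 gave 3.82 for Sod3 at 6 months with an adjusted p of 0.0543, and without GFP− replicate 3 the edgeR value was 6.80, against 0 reads and so no bound. At 9 months 0 of 8 members were called by edgeR, beside 0.263% of all genes higher and 1.63% lower, with a median of −0.09 over the members and 0.11 over all genes. DESeq2 called 1 gene higher and 13 lower there, and 169 of the 1900 genes in edgeR had an unadjusted p under 0.05, none of them a member.

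**Figure D2:**
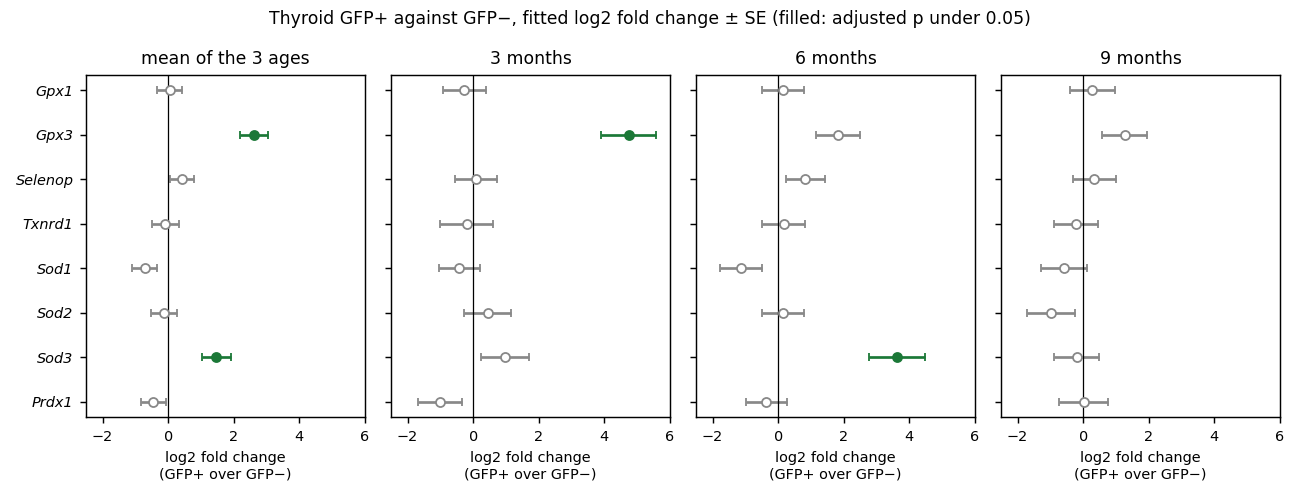
Fitted log2 fold change of GFP+ over GFP− thyroid cells with its SE for the 8 members tested, as the mean of the ages and at 3, 6 and 9 months, with filled points for an adjusted p under 0.05 in edgeR. Gpx3 is filled for the mean and at 3 months, Sod3 for the mean and at 6 months, and the other 6 members are open throughout.

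Selenop encodes selenoprotein P, which carries selenium between tissues in plasma and whose message holds the 10 TGA codons counted above. At 3 months it stood at 0, 339, 322 and 331.5 CPM in GFP+ libraries, against 182, 245, 35.8 and 282 CPM in GFP− libraries. At 6 months the values were 646.5, 511, 251 and 0 CPM in GFP+ libraries, against 301.7, 0, 167 and 199 CPM in GFP− libraries. At 9 months they were 276, 370 and 709 CPM in GFP+ libraries, against 340, 332 and 369 CPM in GFP− libraries. The fractions overlapped at 6 and 9 months. At 3 months the 3 GFP+ libraries with Selenop reads lay above every GFP− library. The GFP+ library at 0 held 1562 reads, which allows up to 1921 CPM. The value of 339 CPM came from a library of 5896 reads and lay under its limit of 509 CPM. The fitted log2 fold change at 3 months was 0.07 (SE 0.638, adjusted p 0.970, edgeR). The summed reads were 351 in GFP+ and 241 in GFP− cells, a pooled ratio of 1.64 (1.39 to 1.94, counting error only). The mean was 341.5 ± 225 CPM in GFP+ cells, beside 223 ± 121 CPM in GFP− cells (SD, n = 11 each). Over the mean of the ages the log2 fold change of 0.42 (SE 0.366, adjusted p 0.529, edgeR) did not pass the test.

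Markers of cell types also differed between the thyroid fractions, some higher and others lower in GFP+ cells. Of 10 fibroblast markers, 9 were tested and 9 were higher in thyroid GFP+ than in GFP− cells over the mean of the ages, with a median log2 fold change of 2.04. The summed fibroblast level ran from 0 to 18990 CPM in GFP+ libraries, with a median of 14810, and from 1073 to 8955 CPM in GFP− libraries, with a median of 2073. No fibroblast marker was at 0 reads over either fraction. At 9 months 0 of the 9 fibroblast markers passed the test, with a median of 1.38, and 2 of 4 pericyte markers tested were higher over the mean of the ages. All 8 endothelial markers were lower in GFP+ cells, with a median of −3.37, and 3 of 5 thyroid follicular markers tested were lower, with a median of −1.96. The 8 endothelial markers summed to 0 to 2561 CPM in GFP+ and 1937 to 8487 CPM in GFP− libraries. The 6 pericyte and smooth muscle markers summed to 0 to 2166 CPM in GFP+ and 179 to 680 CPM in GFP− libraries. Of 8 macrophage and leukocyte markers 6 were at 0 in GFP+ and 5 in GFP− cells, among them Ptprc and Adgre1. All 3 C cell markers tested were lower in GFP+ cells (median −4.65), as were the 2 parathyroid markers (−1.60) and all 4 erythroid markers (−2.80). The 1 airway marker tested was lower over the mean of the ages (−2.58), but its direction differed by age. It stood at 2.05, −3.47 and −6.31 at 3, 6 and 9 months, the last against 0 airway reads in GFP+ cells and so no bound. The 4 airway markers summed to 236 reads in GFP+ and 96 in GFP− cells, with 233 and 33 of them at 3 months. Of 2 adipocyte markers 0 were called. C cell markers summed to 678 to 21160 CPM in GFP+ and 2039 to 27870 CPM in GFP− libraries, with Calcb at 0 in both. Most reads of this list were of Chga, with 19359 over all 28 libraries, beside 2421 of Calca, so the sum mainly follows Chga. Parathyroid markers summed to 2435 to 61460 CPM in GFP+ and 5099 to 68330 CPM in GFP− libraries, and erythroid markers to 0 to 1739 CPM in GFP+ and 358 to 14440 CPM in GFP− libraries. The part of these cell types in the Gpx3 and Sod3 differences was not tested.

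**Figure D3:**
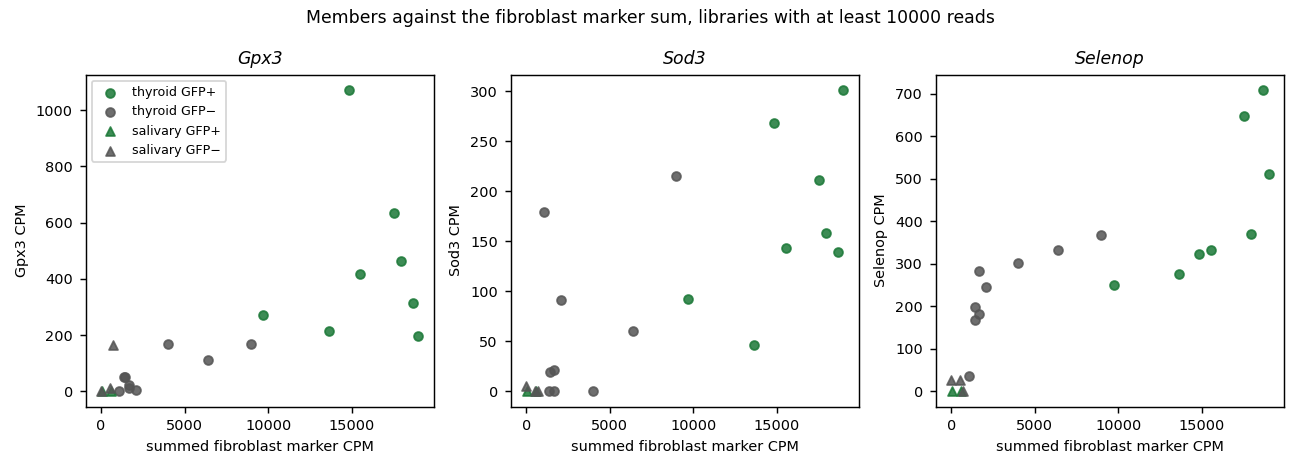
CPM of Gpx3, Sod3 and Selenop in each library with at least 10000 reads, against the summed CPM of 10 fibroblast markers, with GFP+ and GFP− thyroid and salivary gland libraries marked apart. Gpx3 lies at 197 to 1073 CPM in the GFP+ thyroid libraries, whose fibroblast sums are 9713 to 18990 CPM, and at 0 to 169 CPM in the GFP− thyroid libraries, whose sums are 1073 to 8955 CPM.

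Of the intracellular peroxidases, Gpx1 and Prdx1 did not pass the test between the thyroid fractions, and Gpx4 had too few reads to enter it. Gpx1 encodes the abundant cytosolic glutathione peroxidase. It averaged 141.5 ± 131 CPM in thyroid GFP+ cells, beside 122.6 ± 110 CPM in GFP− cells (SD, n = 11 each), and its log2 fold change was 0.05 with a 95% interval of −0.69 to 0.79 (adjusted p 0.966, edgeR). The direction turned when single libraries were left out, down to −0.12 without GFP+ replicate 1 at 9 months. Pooled levels of Gpx1 were 209, 134 and 143 CPM at 3, 6 and 9 months in GFP+ and 174, 114 and 126.5 CPM in GFP− cells.

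Gpx4 encodes the peroxidase that reduces lipid hydroperoxides within membranes. It was counted with 10 reads in GFP+ and 37 reads in GFP− thyroid libraries, a pooled ratio of 0.304 (0.135 to 0.624, counting error only). Its 11 GFP+ libraries ran from 0 to 22.9 CPM with a mean of 6.13 ± 8.08, and its 11 GFP− libraries from 0 to 67.9 CPM with a mean of 28.9 ± 23.5 (SD). The ranges overlapped, and the pooled level was lower in GFP+ than in GFP− at each of the 3 ages (19.9 against 38.6, 11.2 against 22.3 and 6.22 against 55.8 CPM). Gpx4 failed the filter on low counts. In a fit without the filter over 16525 genes its log2 fold change was −1.75 (SE 0.667, unadjusted p 0.00863, adjusted p 0.168, edgeR).

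Prdx1 encodes a cytosolic peroxiredoxin. Its mean was 90.8 ± 75.2 CPM in thyroid GFP+ cells, beside 170.4 ± 166 CPM in GFP− cells (SD, n = 11 each), and its log2 fold change was −0.46 (SE 0.381, adjusted p 0.497, edgeR). The pooled levels of 145.5 CPM in GFP+ and 156.5 CPM in GFP− cells lay closer together than the means. At 3 months GFP+ replicate 4 held all 27 Prdx1 reads of its group, and at 6 months GFP− replicate 2 reached 619 CPM with 3 reads. Without GFP+ replicate 4 at 3 months that group held 0 Prdx1 reads, and Prdx1 was then called lower in GFP+ cells (adjusted p 0.0332, edgeR).

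Txnrd1 encodes cytosolic thioredoxin reductase. Its mean was 122.7 ± 150.5 CPM in thyroid GFP+ cells, beside 68.8 ± 67.1 CPM in GFP− cells (SD, n = 11 each), on 97 and 99 reads. Its log2 fold change was −0.08 (SE 0.406, adjusted p 0.949, edgeR), and 0.25 with DESeq2's size factors. The pooled level of Txnrd1 was 64.7, 109 and 140.0 CPM at 3, 6 and 9 months in GFP+ cells and 66.2, 94.7 and 153 CPM in GFP− cells, higher at 9 than at 3 months in both fractions, and the test of age did not call it in either (adjusted p 1.0 in GFP+ and 0.832 in GFP−, edgeR).

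Selenow encodes a small thioredoxin-like selenoprotein whose selenocysteine comes early in the protein. It had 59 reads in GFP+ and 81 reads in GFP− thyroid libraries, a pooled ratio of 0.820 (0.576 to 1.16). Its mean was 44.3 ± 41.5 CPM in GFP+ cells, beside 65.4 ± 70.0 CPM in GFP− cells (SD, n = 11 each). The fit without the filter gave a log2 fold change of −0.42 (SE 0.509, adjusted p 1.0, edgeR).

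Sod1 encodes the copper and zinc superoxide dismutase of the cytosol. At 3 months it stood at 0, 169.6, 1073 and 720 CPM in GFP+ libraries, against 579, 673, 322 and 692 CPM in GFP− libraries. At 6 months the 3 deep GFP+ libraries, at 505, 210 and 384 CPM, lay below the GFP− libraries, at 771, 1032, 531 and 658 CPM. The fourth GFP+ library was at 0 on 507 reads, which allows up to 5917 CPM. At 9 months the values were 430, 364 and 233 CPM in GFP+ libraries, against 0, 505 and 653 CPM in GFP− libraries, and the GFP− library at 0 held 5884 reads. Over all ages Sod1 averaged 371.7 ± 315.8 CPM in GFP+ cells, and in GFP− cells 583.3 ± 262 CPM (SD, n = 11 each), with a pooled ratio of 0.741 (0.651 to 0.844). The log2 fold change of −0.71 (SE 0.379, adjusted p 0.202, edgeR) did not pass the test, nor did that of 6 months (−1.14, SE 0.633, adjusted p 0.362).

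Sod2 encodes the manganese superoxide dismutase of mitochondria. It had 99 reads in GFP+ and 99 in GFP− thyroid libraries, with means of 93.4 ± 91.6 and 77.1 ± 49.7 CPM in GFP+ and GFP− libraries (SD, n = 11 each). Its log2 fold change was −0.13 (SE 0.400, adjusted p 0.905, edgeR), and 0.16 with DESeq2's size factors. Pooled levels were 129, 151 and 59.1 CPM at 3, 6 and 9 months in GFP+ cells and 74.4, 111 and 119 CPM in GFP− cells.

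Age within a fraction gave no member past the threshold. In GFP+ thyroid cells 0 of 8 members were called over the 3 ages, beside 1.58% of all genes, and 139 genes had an unadjusted p under 0.05 (edgeR; DESeq2 called 0 genes). In GFP− cells 0 of 8 were called, beside 1.53% of all genes, with 250 genes under an unadjusted 0.05 (edgeR; DESeq2 called 2 genes). Gpx3 in GFP− cells came closest, with pooled levels of 11.0, 64.0 and 138 CPM at 3, 6 and 9 months. Its log2 fold changes over 3 months were 2.70 at 6 and 3.28 at 9 months (unadjusted p 0.00111, adjusted p 0.0678, edgeR). With DESeq2's size factors the adjusted p was 0.0119, without libraries under 10000 reads 0.00442, and without GFP− replicate 2 at 6 months, a library of 4845 reads, 0.0332. The summed fibroblast level of the GFP− libraries ran at 3 months from 1073 to 2073 CPM, at 6 months from 1395 to 5573 CPM and at 9 months from 3399 to 8955 CPM, and its part in the Gpx3 values was not tested. Gpx3 in GFP+ cells had log2 fold changes of −0.21 at 6 and −0.20 at 9 months over 3 months (adjusted p 1.0).

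Sod3 in GFP− cells had pooled levels of 60.6, 11.1 and 134 CPM at 3, 6 and 9 months, with log2 fold changes over 3 months of −2.23 at 6 and 0.98 at 9 months (unadjusted p 0.00168, adjusted p 0.0850, edgeR). At 9 months 28 of the 36 Sod3 reads came from replicate 3. Without it the 9-month value was −0.30. Whether the sort difference itself varied with age was tested as an interaction, and 0 of 8 members were called, beside 0.158% of all genes, with 89 genes under an unadjusted 0.05 (edgeR; DESeq2 called 0). The unadjusted p of Gpx3 was 0.00494 (adjusted 0.411) and that of Sod3 0.00245 (adjusted 0.329). Gpx3 was called in this test with DESeq2's size factors and without libraries under 10000 reads.

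In salivary gland at 9 months, members were sparse. The GFP+ libraries held 993, 11795 and 79225 reads in genes and 2, 2 and 13 member reads. The library of 993 reads had 2 Selenop reads alone, that of 11795 reads had 2 Gpx1 reads alone, and the third had reads of 5 members. In the GFP− libraries, with 76584, 36095 and 188657 reads in genes, Gpx1 stood at 91.4, 55.4 and 111 CPM and Prdx1 at 65.3, 55.4 and 63.6 CPM. Sod2 stood at 0, 0 and 12.6 CPM in GFP+ libraries, against 52.2, 166 and 68.9 CPM in GFP− libraries, and 2 of the 3 GFP+ values are limits set by depth. Gpx4 had 0 reads in all 6 salivary libraries together, which allows up to 7.63 CPM.

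Between salivary GFP+ and GFP− cells 0 of 6 members were called, beside 0.0% of all 974 genes higher and 0.0% lower, with 96 genes under an unadjusted 0.05 (edgeR; DESeq2 also called 0). The median log2 fold change of the members was −2.08, or −0.47 with Gpx3 and Sod3, at 0 reads in GFP+, set at no difference, beside −0.89 over all genes. Sod1 had 2 reads in GFP+ and 31 in GFP− cells, a pooled ratio of 0.211 (0.0245 to 0.830) and a log2 fold change of −2.501 (SE 1.22, unadjusted p 0.0401, adjusted p 0.497, edgeR). The difference of the sort between glands was called in 0 of 6 members, beside 0.0% of all genes higher and 0.0% lower, with 86 genes under an unadjusted 0.05 (edgeR; DESeq2 called 0).

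Against salivary gland at 9 months, Gpx3 was higher in thyroid GFP+ cells and Sod3 in thyroid GFP− cells. Gpx3 had 120 reads in thyroid GFP+ and 0 in salivary GFP+ cells, at least 11.5-fold higher in thyroid against 3 reads over the salivary group (adjusted p 0.0314, edgeR). Ribosomal RNA rows took 28.2 to 35.1% of reads in genes in thyroid GFP+ libraries at 9 months, beside 53.4 to 63.8% in salivary GFP+ libraries. Without these rows the bound for Gpx3 was 6.96-fold, and every pooled ratio between glands in GFP+ cells was lower by a factor of 1.65 (1.46 in GFP− cells). Gpx3 was 1 of 6 members called higher and 0 were lower, beside 9.34% and 5.03% of all genes. With 0 reads in salivary GFP+ libraries, Gpx3 passed the filter on low counts through other groups. The filter thus favoured the direction of this call, which is given as a description. The members' median was 2.23, or 2.05 with Gpx3 and Sod3 at their bounds, beside 1.15 over all genes. Apart from Gpx1, the members tested here passed the filter through thyroid libraries, which favoured a higher median. The Gpx3 call held in 8 of 15 alternatives. The losses included the fits without any 1 of the 3 salivary GFP+ libraries, without thyroid GFP+ replicate 2 or 3, and with no filter, and lay at adjusted p between 0.0517 and 0.1502. DESeq2's size factors moved the median of all genes to 2.81 and the split of calls to 669 higher and 39 lower, against 91 and 49, and DESeq2 gave 469 and 45.

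In GFP− cells Sod3 had 36 reads in thyroid and 1 in salivary gland, a pooled ratio of 40.4 (6.80 to 1638). Its log2 fold change was 3.35 (SE 1.24, adjusted p 0.0485, edgeR). Sod3 was 1 of 6 members called higher and 0 were lower, beside 9.86% and 4.31% of all genes. The medians were 0.34 over the members, favoured by the filter as in GFP+ cells, and 0.17 over all genes. Salivary libraries held at most 5.30 CPM of Sod3, so it passed the filter on low counts through thyroid libraries. The filter thus favoured the direction of this call, which is given as a description. The Sod3 call held in 3 of 13 alternatives: DESeq2's size factors in edgeR (adjusted p 0.000970), without libraries under 10000 reads and without thyroid GFP− replicate 1. It had no adjusted p without ribosomal RNA rows, where it failed the filter, nor with size factors from positive counts in DESeq2. Without thyroid GFP− replicate 3 the value was 2.05 (adjusted p 0.698), and without replicate 2 the call was also lost (0.0929). It was lost without salivary GFP− replicate 1 (0.132), 2 (0.149) or 3 (0.325), the last of which held the one salivary read. Other losses were with DESeq2 (4.34, adjusted p 0.0608), with size factors from positive counts in edgeR (0.0698), with no filter (0.392) and with all 28 libraries in 1 fit (0.109). DESeq2's size factors moved the median of all genes to 1.60 and the split to 469 higher and 32 lower, against 96 and 42, and DESeq2 gave 336 and 34.

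Selenop came next by adjusted p between glands. It had 142 reads in thyroid GFP+ and 2 in salivary GFP+ cells, a ratio of 20.3 (5.53 to 169.5), and 94 reads in thyroid GFP− and 7 in salivary GFP− cells, a ratio of 15.1 (7.03 to 38.5). Its log2 fold changes were 2.35 in GFP+ (adjusted p 0.138) and 2.12 in GFP− cells (SE 0.890, adjusted p 0.0958, edgeR). DESeq2 called it in both (adjusted p 0.0217 in GFP+ and 0.00850 in GFP−). In edgeR it was called in GFP+ cells without the salivary library of 993 reads, which held both Selenop reads of its group (adjusted p 0.0338), and in GFP− cells without thyroid replicate 1 (adjusted p 0.0429). Over all settings tried in both fractions its adjusted p ran from 0.000129 to 0.629. Sod1 had pooled ratios of thyroid over salivary gland of 15.75 (4.26 to 132) in GFP+ and 5.499 (3.72 to 8.38) in GFP− cells. These ratios rest on 2 salivary GFP+ and 31 salivary GFP− reads. The fit after normalization gave smaller differences, with log2 fold changes of 2.11 in GFP+ (SE 1.19) and 0.32 in GFP− cells (SE 0.707). Neither passed the test (adjusted p 0.207 in GFP+ and 0.855 in GFP−, edgeR). In GFP+ cells Sod1 was called higher in thyroid in 4 of 15 alternatives, with DESeq2 (3.61, adjusted p 0.00879), DESeq2's size factors in edgeR (0.00109) and size factors from positive counts in DESeq2 (0.0469) or edgeR (0.0265). Selenop and Sod1 passed edgeR's filter on low counts through thyroid libraries, which favoured the direction of these differences. Their calls are given as descriptions. Without ribosomal RNA rows the GFP+ ratios were 12.35 for Selenop and 9.57 for Sod1. Gpx4 had 15 reads in thyroid GFP− and 0 in salivary GFP− cells, at least 5.61-fold higher in thyroid, and did not pass in the fit without the filter (unadjusted p 0.0148, adjusted p 0.547, edgeR). The summed fibroblast level at 9 months was 13650 to 18650 CPM in thyroid GFP+ and 0 to 593.5 CPM in salivary GFP+ libraries, where 5 of the 10 markers were at 0 (Col1a1, Lum, Bgn, Fbln1 and Mfap5). In GFP− cells it was 3399 to 8955 CPM in thyroid and 15.9 to 692.6 CPM in salivary gland, where Lum and Mfap5 were at 0. Its part in these differences was not tested.

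The tissue labels were checked with markers. The 7 salivary acinar markers summed to 0 to 3841 CPM in thyroid libraries, against 2014 to 47620 CPM in salivary GFP+ and 78570 to 170900 CPM in salivary GFP− libraries. The ranges overlapped through shallow libraries, since 3841 CPM was 6 reads in a thyroid GFP+ library of 1562 reads and 2014 CPM was 2 reads in the salivary library of 993. In libraries of at least 10000 reads the thyroid sums reached 338 CPM and the salivary sums began at 12290 CPM. The 9 thyroid follicular markers summed at 9 months to 399.5 to 614 CPM in thyroid GFP+ libraries, with Tshr and Pax8 at 0, against 680 to 9815 CPM in thyroid GFP− libraries. All 9 were at 0 in salivary GFP+ libraries, which together held 92013 reads in genes. In salivary GFP− libraries 6 of the 9 were at 0, and the sum was 31.8 to 110.8 CPM, on 17 reads.

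The wider pathway was followed in 7 lists, and 4 genes passed the test between thyroid GFP+ and GFP− cells over the mean of the ages. Gstm1 and Hmox1 were higher and Dio1 and Tg lower, beside 11.4% of all 1900 genes called higher and 8.79% called lower. Of 18 other selenoproteins 4 were tested, 0 were higher and 1 was lower, with a median log2 fold change of −0.18. That gene was Dio1, a deiodinase that acts on thyroid hormone and also a follicular marker here, at −2.30 (SE 0.580, adjusted p 0.000762, edgeR). Selenof, Selenok and Selenos, selenoproteins of the endoplasmic reticulum, were the other 3 tested. None of 11 genes of selenocysteine synthesis and selenium supply had enough reads for a test; those with most reads were Secisbp2l with 101 and Lrp2 with 76 reads over all 28 libraries.

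Of 13 peroxiredoxin, thioredoxin and glutaredoxin genes 7 were tested and 0 were called, with a median of −0.13. Those with most reads were Txn1, thioredoxin itself, at −0.13 (adjusted p 0.904), and Prdx5 at −0.12 (adjusted p 0.907). Both values were above 0 with DESeq2's size factors. Of 15 glutathione genes 4 were tested, 1 was higher and 0 were lower, with a median of 1.15. Gstm1, a glutathione transferase, was higher at 1.54 (SE 0.396, adjusted p 0.000968), and 1.13 without GFP+ replicate 4 at 3 months (adjusted p 0.0906). The call of Gstm1 was also lost with size factors from positive counts in DESeq2 (adjusted p 0.0845) or edgeR (0.138) and with no filter (0.0697).

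Of 11 genes of the NRF2 pathway, which switches on antioxidant genes, 6 were tested, 1 was higher and 0 were lower, with a median of 0.11. Hmox1, which degrades heme, was higher at 1.14 (SE 0.422, adjusted p 0.0355). It was called in 18 of 31 alternative fits and was at 0.52 (adjusted p 0.680) without GFP+ replicate 4 at 3 months. Of 8 genes for catalase, metallothioneins, copper chaperones and ferritins 4 were tested and 0 were called, with a median of 0.29. Those with most reads, the metallothioneins Mt2 and Mt1, stood at 0.88 (adjusted p 0.184) and 0.52 (adjusted p 0.511). Mt2 was called higher in GFP+ cells in 4 of 31 alternatives, with DESeq2 (1.24, adjusted p 5.51e-06), DESeq2's size factors in edgeR (1.27e-05), without libraries under 10000 reads (6.34e-07) and without GFP+ replicate 4 at 6 months (0.0396). Mt1 was called higher in the first 3 of these (adjusted p 0.00338, 0.00407 and 0.00126). Of 8 makers and users of hydrogen peroxide in the thyroid 2 were tested, 0 were higher and 1 was lower. Tg, thyroglobulin, was lower at −2.22 (SE 0.489, adjusted p 8.66e-05, edgeR). It was called in 30 of 31 alternatives, all but size factors from positive counts in edgeR (−2.09, adjusted p 0.0609). The median of all 1900 genes was −0.08.

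Levels of members were also compared across the 17 thyroid libraries with at least 10000 reads, as Pearson correlations of log2 CPM that are given as descriptions. They span both fractions, 3 ages and 18639 to 209091 reads in genes, and none of these was held fixed. The 3 members with most reads over all libraries were Sod1, Selenop and Gpx3. The genes most like Gpx3 were Ccl11, a chemokine, with r = 0.966, Loxl1, which crosslinks elastin, with 0.932, and Fstl1 with 0.926. Those most like Selenop were Pcolce2 with 0.841, Dnajc1 with 0.818 and Timp2, a metalloproteinase inhibitor, with 0.817. Those most like Sod1 were Sec11c with 0.832, Myo6 with 0.826 and Tinagl1 with 0.807. Among the 28 pairs of the 8 members tested, the 3 highest were Txnrd1 and Prdx1 with r = 0.648, Gpx3 and Selenop with 0.592, and Selenop and Prdx1 with 0.552. The 3 lowest were Gpx1 and Prdx1 with −0.607, Gpx1 and Selenop with −0.586, and Sod1 and Sod3 with −0.547.

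**Figure D4:**
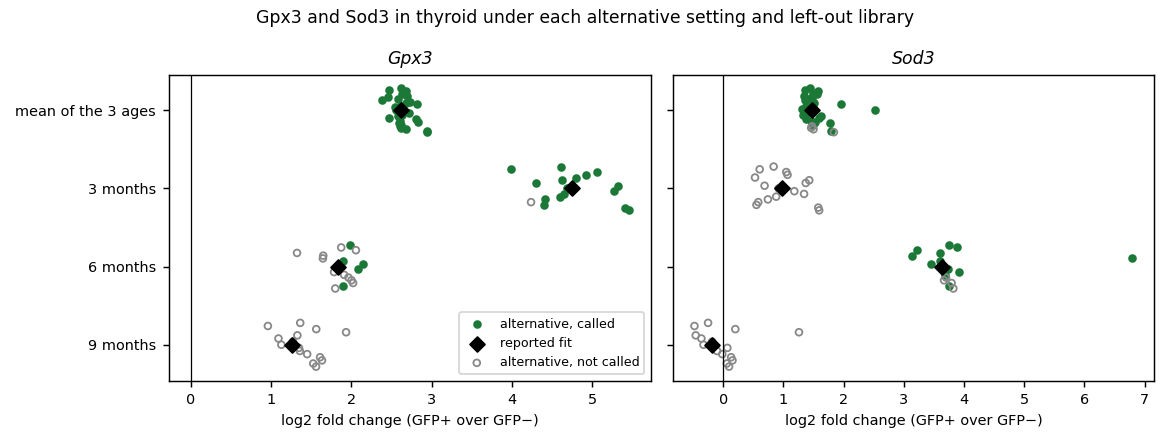
Log2 fold change of Gpx3 and Sod3, thyroid GFP+ over GFP−, for the mean of the ages and each age, in the main fit, under each alternative setting and with each library left out in turn. Gpx3 stays above 0 in the mean of the ages (2.38 to 2.94), as does Sod3 (1.31 to 2.53), while Sod3 at 9 months lies on both sides of 0 (−0.48 to 1.26).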

How the data were processed

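Read counts per gene, 1 table per library, were used as the authors deposited them, for 28 libraries of sorted mouse thyroid and salivary gland cells. A column kit with a DNase step gave the RNA and a 3′ mRNA kit the libraries, per the labels' protocols. Per the submitters' processing notes, bcl2fastq was used and the genome build was mm9. The aligner, the counting program and its strand setting are not given in the sources used here, so reads of overlapping genes cannot be told apart. Besides 47643 gene rows there were 5 summary rows, which stayed out of library sizes and tests. The no-feature row was 13.3 to 85.8% and the ambiguous row at most 0.426% of reads. Identifiers were matched to GENCODE vM21 symbols (47224 matched, 419 did not). Sequences and positions are from GENCODE vM21 on GRCm38, used apart from the mm9 counts. Replicates were compared in 36 pairs. Of these 0 held identical counts, and the lowest chi-square per gene was 2.43.

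Groups were set by the labels' gland, fraction and age. CPM scale each count to the reads in genes of its library (507 to 209091). The limit for 0 reads was 3 reads, and pooled ratios of summed reads have exact 95% intervals; both cover counting error only. Genes were kept by filterByExpr (minimum 10, total 15). Quasi-likelihood tests, with robust dispersion, were run in edgeR 4.0.16 under R 4.3.3 after TMM normalization, whose factors ran from 0.232 to 10.7. P-values were adjusted by Benjamini-Hochberg over all genes and called at 0.05. The 22 thyroid libraries entered 1 fit of 6 groups (1900 genes, biological coefficient of variation 0.466), and the 12 libraries at 9 months another of 4 groups (974 genes, 0.48). Correlations used log2 CPM with a prior count of 2. The scripts were tested on simulated data. The members, lists and tests were chosen with earlier results of these data known.

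All members are named. Of each pathway list the text names up to 4 called genes, taken by adjusted p, and where a list has none the 2 with most reads. It also names the 3 genes most like each of the 3 members with most reads. Selenof, Selenok and Selenos are outside this rule and complete their list. The value of 1 gene of the hydrogen peroxide list is not reported here. Other settings were DESeq2 1.42.0, DESeq2's size factors in edgeR, no filter on low counts, all 28 libraries in 1 fit, a replicate block, no libraries under 10000 reads, no ribosomal RNA rows, and each library left out in turn. Size factors from positive counts were added after seeing the data. Same-numbered libraries were checked for pairing by correlating residuals, and the numbers were not taken to pair them.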

Additional observations from a re-analysis of the deposited data

Results flagged for a closer look

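The CPM of each member was checked in the 4 thyroid groups of 4 libraries for a library far from the other 3 in its group, by Dixon's ratio. Of 40 member and group combinations 7 stood out, and all 7 lie in groups with at least 1 library under 10000 reads. The chance rate of about 1 in 20 does not hold for CPM with many libraries at 0. A gene with reads in 1 of 4 libraries has a ratio of 1.0 and is always flagged. That was so for Gpx4, Selenow and Prdx1 in GFP+ cells at 3 months and Sod3 in GFP− cells at 6 months. In GFP+ cells at 3 months, replicate 4, the deepest library of the group with 174957 reads, was the one library with reads of Gpx4 at 22.9 CPM (4 reads), Selenow at 62.9 CPM (11 reads) and Prdx1 at 154 CPM (27 reads). The other 3 were at 0 with limits of 1921, 509 and 161 CPM, so these values do not place replicate 4 above them. In the same group Txnrd1 reached 508.8 CPM in replicate 2, on 3 reads in a library of 5896. Selenop was at 0.0 CPM in replicate 1, a library of 1562 reads with a limit of 1921 CPM, beside 322 to 339 CPM in the other 3. In GFP− cells at 6 months Prdx1 reached 619 CPM in replicate 2, on 3 reads in a library of 4845, and Sod3 stood at 19.1 CPM in replicate 3 (4 reads) and 0 in the others, whose limits were 26.0 to 619 CPM.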

How the results depend on the processing

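The cause of the changes below was not tested. The count of members called was 2 between thyroid GFP+ and GFP− cells over the mean of the ages, and 1 (Gpx3) with DESeq2, with size factors from positive counts in DESeq2 or edgeR, and with no filter. At 3 months it was 1, and 0 with size factors from positive counts in edgeR, and 1 to 2 with libraries left out. At 6 months it was 1, and 0 with DESeq2, with size factors from positive counts in either tool and with no filter, 2 with DESeq2's size factors in edgeR and without libraries under 10000 reads, and 1 to 2 with libraries left out. For the difference between ages and for age in GFP− cells it was 0, and 1 with DESeq2's size factors and without libraries under 10000 reads; for age in GFP− cells it was 0 to 1 with libraries left out. Between glands in GFP+ cells it was 1, and 3 with DESeq2 under either set of size factors, 5 with DESeq2's size factors in edgeR, 4 with those from positive counts, 0 with no filter, 2 with all 28 libraries in 1 fit and without libraries under 10000 reads, and 0 to 1 with libraries left out. Between glands in GFP− cells it was 1, and 3 with DESeq2's size factors in edgeR, 0 with those from positive counts in either tool, with no filter and with all 28 libraries, 2 without libraries under 10000 reads, and 0 to 2 with libraries left out. With the replicate numbers as a block it was 0 between glands in GFP+ cells (Gpx3 adjusted p 0.0545) and 0 in GFP− cells (Sod3 adjusted p 0.134). Of same-numbered libraries, 3 of 11 pairs of fractions in thyroid had residual correlations above 0.1 (−0.0893 to 0.3515). So had 4 of 6 pairs of fractions at 9 months (0.0300 to 0.187) and 0 of 6 pairs of glands (−0.141 to 0.0171). Libraries of different numbers were not correlated for reference, so this check cannot exclude pairing. The main fits left the numbers out. The block changed no other count of members called.

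Signs turned for values near 0. Sod3 between thyroid fractions at 9 months (−0.19 log2) was 0.097 with DESeq2, 0.060 with its size factors in edgeR, 0.15 and 0.13 with those from positive counts in DESeq2 and edgeR, 0.068 with the replicate block and −0.48 to 1.26 with libraries left out. Over the mean of the ages Txnrd1 (−0.08) was 0.80 with DESeq2, 0.25 with its size factors and −0.35 to 0.22 with libraries left out; Sod2 (−0.13) was 0.22, 0.16 and −0.29 to 0.12; and Gpx1 (0.05) was −0.12 to 0.24 with libraries left out. Txn1 was 0.12 with DESeq2, 0.15 with its size factors and 0.053 without libraries under 10000 reads, and Prdx5 was 0.23 and 0.17. Gpx1 between glands in GFP− cells (−1.43) was 0.0032 and 0.015. Sod3 over age in GFP− cells (0.98) was −0.30 to 1.45 with libraries left out.

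Counts over all genes also moved. Between thyroid fractions over the mean of the ages 383 genes were called, with 335 to 425 when libraries were left out and 158 to 489 under the other settings. The counts were 185 (131 to 203, and 20 to 251) at 3 months, 135 (74 to 171, and 1 to 205) at 6 months and 36 (6 to 43, and 0 to 52) at 9 months. Between glands they were 140 (31 to 142, and 31 to 708) in GFP+ and 138 (32 to 203, and 50 to 501) in GFP− cells. For age they were 30 (13 to 48, and 0 to 56) in GFP+ and 29 (1 to 49, and 0 to 96) in GFP− cells. At this depth a member at 0 in a shallow library could have been as high as in a deep one.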
